A study of Saccharomyces cerevisiae with 109 samples.

Results

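Newly made mRNA of yeast cultures held at 5 °C was compared with and without glutathione added to the medium. The members were chosen from the labels as the libraries of RNA labelled with 4-thiouracil (4tU) at 5 °C at 1.5, 6, 24, 48 and 96 h, and they numbered 30 of the 109 libraries of the series. Of these, 15 came from 3 high [GSH] cultures, which received 250 µM reduced glutathione (GSH), and 15 came from 3 low [GSH] cultures, which received 0 µM. The study uses low [GSH] for a high-density population without added glutathione and high [GSH] for a low-density population given it. The labels give no starting density for these cultures, so whether density differed between the groups is not known. All 6 cultures were of the haploid MATa strain W303 of Saccharomyces cerevisiae, which carries mutant alleles of HIS3, LEU2, URA3, TRP1, ADE2 and CAN1, and all were given 5 mM 4tU. The labels call the libraries replicates and do not say whether a replicate number at different times marks the same flask. Libraries of the same group and number were treated as repeated measurements of a culture.

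4tU is a uracil analogue that cells build into RNA as they transcribe it, so RNA carrying it can be tagged with biotin and purified from the rest. A fixed amount of labelled cells of the fission yeast Schizosaccharomyces pombe was added to each sample as a spike-in, and its reads give a scale for how much labelled mRNA a sample held. The series was made to measure how fast transcription runs near freezing. The comparison described here asks whether the labelled level of single genes, or the total of labelled mRNA, differs with added glutathione. Such a level reflects both synthesis and decay.

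Glutathione is a tripeptide of glutamate, cysteine and glycine and is the main soluble thiol of the yeast cell. Gsh1 joins glutamate to cysteine and Gsh2 adds the glycine, and the oxidised form is reduced again by the reductase Glr1 at the expense of NADPH. The transcription factor Yap1 activates GSH1, GLR1, thioredoxin and peroxiredoxin genes when cells meet peroxides. Outside glutathione enters through the plasma membrane transporter Opt1 and is taken apart by the Dug peptidases, which return its amino acids, sulfur included, to metabolism.

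The 15 low [GSH] libraries held 14339515 to 17552384 estimated reads each and the 15 high [GSH] libraries 15355575 to 18356126. Summed over the 5 times, a low [GSH] culture had 63092002 to 64643704 mRNA reads and a high [GSH] culture 63769253 to 68550253. Each library listed 6532 open reading frames, of which 5876 are annotated as protein-coding. None of the 50 replicate pairs compared was identical, and all differed by more than counting noise. Mating-type genes were checked against the MATa label: STE2, the α-factor receptor of a cells, was at 203 to 230 reads per 1000000 mRNA reads (counts scaled in this way are written CPM), against 19.7 to 26.2 CPM for STE3, the receptor of α cells. MF(ALPHA)1, which encodes α-factor, was at 23.7 to 38.4 CPM and MF(ALPHA)2 at 0.29 to 0.52 CPM. Of the a-factor genes, which are very short, MFA1 was at 0.28 to 0.73 CPM and MFA2 at 9.63 to 19.2 CPM. Per kilobase MFA2 was at 122 CPM, MF(ALPHA)1 at 63.3 CPM and MFA1 at 3.76 CPM. Reads on TRP1, which the genotype of this strain gives as a deletion allele, were at 15.1 to 16.3 CPM. Why reads fell on a gene given as deleted was not tested.

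No gene passed the threshold when the 5 times of each culture were summed. edgeR's quasi-likelihood test with Benjamini-Hochberg adjustment called 0 of 6175 genes at an adjusted p under 0.05 (0.0%), and the smallest adjusted p was 0.972. At an unadjusted p under 0.05 there were 221 genes (3.58%), of which 157 were higher in the high [GSH] cultures (2.54%) and 64 were lower (1.04%). Without low [GSH] replicate 1 these were 36 and 35, and with the trend against coding length removed 144 and 119. Leaving out any other single culture gave 109 to 288 higher and 38 to 120 lower, with more genes higher than lower each time. DESeq2, run as an alternative, called 2 genes (0.031%), both lower, and had 242 genes at an unadjusted p under 0.05 (3.76%).

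A missing call does not by itself show that levels were the same, so the size of difference that the 6 cultures allow was taken from the 95% interval of each gene. The interval lay within 1.5-fold in both directions for 5182 of the 6175 genes (83.9%) and within 2-fold for 5874 (95.1%). Among the 5319 genes above 10 CPM these shares were 92.1% and 99.2%. The median gene had a standard error of 0.10 on the log2 scale and an estimated difference of 0.08 in size. The interval of the median gene reached 0.24 on either side of its estimate. That width is a precision for a single gene before adjustment over all genes. It is not a size of difference that would have been called.

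The genes of glutathione metabolism were taken as 2 lists, 7 genes of synthesis, reduction and their regulators and 11 genes of import, exchange and breakdown. None of the 18 had an unadjusted p under 0.05 in the summed comparison, and for 17 the 95% interval lay within 1.5-fold. The synthesis list had a median log2 fold change of -0.06 and the import list of 0.02, beside 0.00 over all genes tested.

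GSH1, which encodes the rate-limiting enzyme of glutathione synthesis, had 210, 210 and 206 CPM in the 3 low [GSH] cultures and 210, 200 and 203 CPM in the high [GSH] cultures. The groups overlapped, and the log2 fold change of -0.03 had a 95% interval from -0.18 to 0.13. Levels of GSH1 in single libraries ran from 166 to 247 CPM without added glutathione and from 168 to 239 CPM with it. GSH2, the glutathione synthetase gene, had a log2 fold change of -0.08 with an interval from -0.33 to 0.17.

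GLR1, the glutathione reductase gene, had 284, 264 and 253 CPM in the low [GSH] cultures and 249, 236 and 251 CPM in the high [GSH] cultures. All 3 high [GSH] values were below all 3 low [GSH] values, by little, and the log2 fold change was -0.12 with an interval from -0.30 to 0.06. At 48 h the low [GSH] libraries had 316, 290 and 289 CPM and the high [GSH] libraries 259, 242 and 262 CPM, and edgeR gave a log2 fold change of -0.23 with an unadjusted p of 0.0447 and an adjusted p of 0.584. At 6 h the order was mixed, with 256, 247 and 238 CPM against 274, 254 and 241 CPM. YAP1 had a log2 fold change of -0.13 and its relative CAD1 of -0.06. SKN7, whose product works with Yap1 on peroxide-response genes, had 264, 279 and 326 CPM against 331, 316 and 313 CPM and a log2 fold change of 0.15.

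OPT1, the high-affinity glutathione importer, had the largest positive estimate of the 18 genes. The low [GSH] cultures had 66.7, 92.2 and 91.7 CPM and the high [GSH] cultures 107, 102 and 93.7 CPM, with no overlap between them. The log2 fold change was 0.27 with an interval from -0.03 to 0.57, and low [GSH] replicate 1 stood below the other 5 cultures. At 96 h the libraries had 82.3, 97.5 and 105 CPM without and 141, 113 and 110 CPM with glutathione, a log2 fold change of 0.35 with an edgeR adjusted p of 0.835.

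The genes of glutathione breakdown gave small estimates with narrow intervals. DUG2 and DUG3, whose products form the cytosolic complex that opens glutathione, had log2 fold changes of -0.05 and 0.06. DUG1, the gene of the dipeptidase that splits the remaining cysteinylglycine, had 0.04. ECM38, the vacuolar γ-glutamyl transpeptidase gene, was at -0.01 and GCG1, a cytosolic γ-glutamyl cyclotransferase gene, at -0.13. Of the transporters, YCF1, which carries glutathione conjugates into the vacuole, was at -0.05 with an interval from -0.24 to 0.14, its relative BPT1 at 0.07, and OPT2 at 0.02. The proton antiporter genes GEX1 and GEX2 differed in how well they were measured. GEX2 had 23.2 to 28.6 CPM and a log2 fold change of 0.14. GEX1, at 0.17 to 0.51 CPM, was the exception to the narrow intervals, with -1.17 to 0.76.

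**Figure D1:**
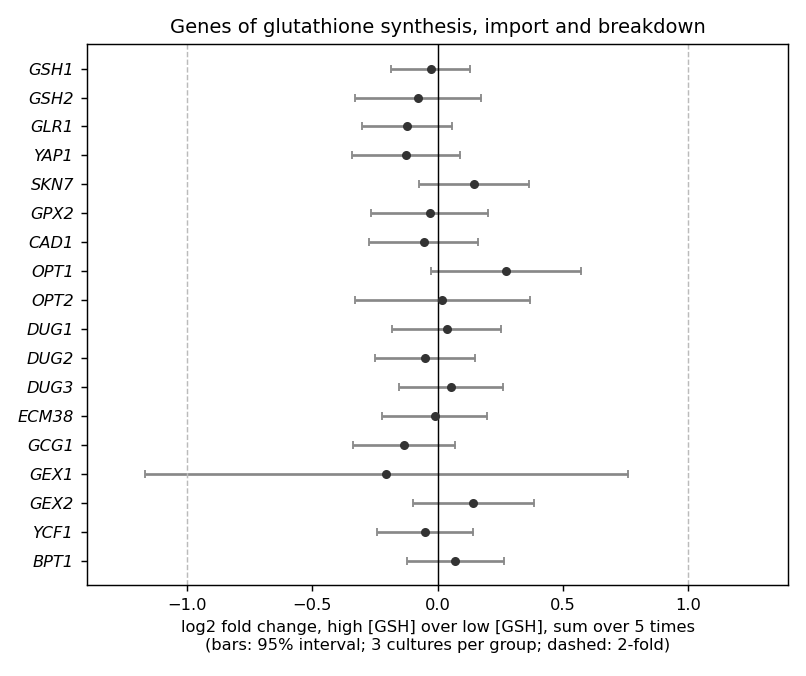
Log2 fold change of high [GSH] over low [GSH] for the 18 glutathione genes, from counts summed over 5 times in 3 cultures a group. Points are edgeR estimates, bars are 95% intervals and dashed lines mark 2-fold. Every interval crosses 0, and only that of GEX1 reaches beyond 1.5-fold, from -1.17 to 0.76.

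The same genes were then taken time by time. Of 85 gene and time combinations, 4 had an unadjusted p under 0.05, 8 had groups that did not overlap, and 0 passed after adjustment, with a smallest adjusted p of 0.583. Over all genes the share without overlap was, for higher and lower levels in high [GSH], 5.24% and 5.5% at 1.5 h, 3.01% and 3.75% at 6 h, 3.73% and 3.84% at 24 h, 7.06% and 5.47% at 48 h, and 4.43% and 5.35% at 96 h. A gene and time without overlap was thus no rare event. Lower in high [GSH] without overlap were GSH1, GSH2 and YAP1 at 1.5 h, with log2 fold changes of -0.14, -0.16 and -0.13, and YAP1 and GLR1 at 48 h, with -0.20 and -0.23. Higher were OPT1 at 96 h and SKN7 at 48 h, with a log2 fold change of 0.28, and at 96 h, with 0.33. The 4 with an unadjusted p under 0.05 were GLR1 at 48 h, OPT1 at 96 h and SKN7 at both times. SKN7 had 245, 269 and 274 CPM against 322, 349 and 281 CPM at 48 h, and 234, 204 and 259 CPM against 327, 279 and 266 CPM at 96 h. At 24 h, in contrast, its low [GSH] values of 258, 275 and 404 CPM enclosed the high [GSH] values of 343, 292 and 309 CPM.

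The labelled levels of some of these genes changed during the incubation, and those of others, such as GSH1, YAP1 and GEX2, had no called change. Between 1.5 and 96 h, edgeR called 4383 of 5977 genes (73.3%) in the low [GSH] cultures and 4360 (72.9%) in the high [GSH] cultures. Both were contrasts in a fit of all 30 libraries with the culture as a block. That fit pools the spread over both groups and all times, so the adjusted p do not come from either group alone. It also takes libraries of the same group and number as a culture, which the labels do not state. The adjusted p may therefore overstate the evidence. DUG1 rose in both groups, from 36.9, 39.3 and 47.1 CPM to 196, 219 and 163 CPM in low [GSH] and from 50.6, 47.8 and 43.5 CPM to 184, 204 and 196 CPM in high [GSH]. The log2 changes were 2.22 and 2.04, with adjusted p of 2.91e-12 and 8.83e-12. GLR1 rose by 0.82 and 0.79, with adjusted p of 4.32e-08 and 7.86e-08. YCF1 had the opposite course and fell by 0.88 in low [GSH] and by 0.63 in high [GSH], with adjusted p of 2.36e-06 and 1.46e-04. GSH1 changed by 0.04 and 0.10, with adjusted p of 0.683 and 0.245. Labelled RNA collects over the incubation, so a level at 96 h is what was made and not yet degraded over that time and not a rate.

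**Figure D2:**
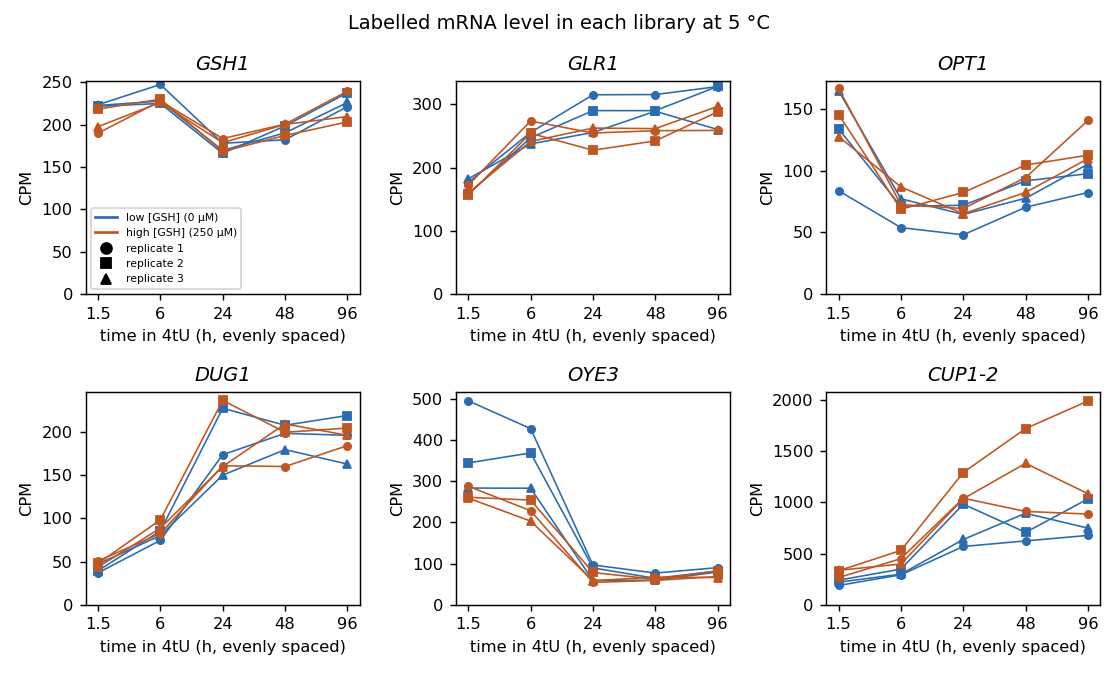
Labelled mRNA level (CPM) of 6 genes in each of the 30 libraries, by time in 4tU. Lines join libraries of a culture, colour gives the group and marker shape the replicate. GSH1 stays between 166 and 247 CPM, DUG1 rises in both groups, the low [GSH] values of OYE3 lie above the high [GSH] values at 6 h, and CUP1-2 is highest in high [GSH] replicate 2 at 48 and 96 h.

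Yap1 binds the sequence TTACTAA, which reads TTAGTAA on the other strand. Both strands of the 300 bases before each coding start were searched in the RefSeq S288C R64 reference, and 460 of 5727 promoters (8.03%) held at least 1 match. The list of glutathione synthesis and reduction had 3 in 7, import, exchange and breakdown 1 in 11, glutaredoxins and glutathione transferases 6 in 15, thioredoxins and peroxiredoxins 1 in 11, catalases, dismutases and peroxidases 5 in 9, and old yellow enzymes and their relatives 2 in 12. Windows are shown for some of the genes whose levels are given here, with the match in capitals, written 5′ to 3′ along the strand of the gene. Not printed, among others, are matches of SOD1, SOD2, GRX2 and GTT2 and a further match of TRX2.
GLR1, chrXVI:375300-375328, plus strand: tttgacgtcacTTAGTAAgcacgaccctt
SKN7, chrVIII:512475-512503, plus strand: ttgtcaaagttTTACTAAcattacacaga
YCF1, chrIV:727697-727725, minus strand: aaggttacggcTTAGTAAttacgaaattg
TRX2, chrVII:913391-913419, minus strand: tggctcttttcTTACTAAgcgcgttcagt
OYE3, chrXVI:227502-227530, minus strand: cgcaataaccaTTACTAAgcacagtgttg
OYE3, chrXVI:227566-227594, minus strand: agaagggctccTTAGTAAgcagtttgcgt

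The letters describe the reference sequence and not a bound site. The 460 genes with the match had a median log2 fold change of 0.00, against 0.01 for the 5267 without it, and 9 were higher and 5 lower at an unadjusted p under 0.05, beside 136 higher and 25 lower of the 5267. Of the genes printed, YCF1 and GLR1 had estimates below 0, SKN7 and TRX2 above 0, and OYE3 had the lowest estimate. Of genes with a match that is not printed, SOD1, SOD2 and GRX2 had estimates of 0.12, 0.27 and 0.36, and GTT2 of -0.19.

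OYE3 encodes an NADPH oxidoreductase of the old yellow enzyme family, which reduces electrophilic carbonyl compounds. Outside the glutathione lists, OYE3 and all genes named from the motif search on were chosen after their values were seen. The low [GSH] cultures had 223, 187 and 135 CPM and the high [GSH] cultures 128, 141 and 122 CPM. Low [GSH] replicate 3 fell inside the range of the high [GSH] cultures. The log2 fold change was -0.48 with an interval from -0.86 to -0.09, an unadjusted edgeR p of 0.0208 and an adjusted p of 0.972.

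The estimates for OYE3 were larger at the first times than later, but the late minus early difference of 0.32 had an unadjusted p of 0.00823 and an adjusted p of 0.496 in edgeR. At 6 h the 3 low [GSH] libraries had 427, 368 and 283 CPM and the high [GSH] libraries 228, 254 and 203 CPM, which did not overlap, with a log2 fold change of -0.66. At 1.5 h the values were 495, 344 and 283 CPM against 288, 261 and 259 CPM, with an estimate of -0.47. By 48 h they were 77.0, 64.1 and 59.7 CPM against 59.1, 61.9 and 67.1 CPM, with an estimate of -0.09. Between 1.5 and 96 h the gene fell by 2.12 in low [GSH] and by 1.90 in high [GSH]. The adjusted p were 1.20e-12 and 5.80e-12 in the fit of all 30 libraries, which pools the spread over both groups. Libraries outside the 30, at 3 h, had 555, 390 and 378 CPM in low [GSH] and 248 and 243 CPM in high [GSH], and at 12 h 248, 185 and 155 CPM against 157 and 122 CPM. In the steady-state libraries the values were 91.2, 109 and 73.0 CPM against 90.7, 90.6 and 86.2 CPM, which overlapped.

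OYE2, the close relative of OYE3, had a log2 fold change of -0.15 with an interval from -0.37 to 0.08. ADH6, an NADPH-dependent alcohol dehydrogenase gene that reduces aldehydes, had 112, 107 and 89.9 CPM in low [GSH] and 79.3, 75.8 and 85.3 CPM in high [GSH]. Its groups did not overlap in the sum or at 4 of the 5 times, and the log2 fold change was -0.36 with an interval from -0.59 to -0.13 and an adjusted p of 0.972. The list of old yellow enzymes and Yap1-linked oxidoreductases as a whole had 3 of 12 members above 0, 1 with an unadjusted p under 0.05, and a median of -0.08, which was -0.16 without high [GSH] replicate 2, -0.05 without high [GSH] replicate 3 and -0.05 without low [GSH] replicate 1. In the sum over times 240 of 6175 genes had every high [GSH] culture below every low [GSH] culture (3.89%) and 289 had them above (4.68%). Over the 5 times separately, no gene was without overlap at all 5. At 4 of them CUP1-2, RHO4, a small GTPase gene, and YLR326W were higher, and ADH6, SLP1, CCT3, a chaperonin subunit gene, and RRP45, an exosome subunit gene, were lower, of 5930 genes.

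Genes of the other antioxidant systems were taken next. The 11 thioredoxins and peroxiredoxins, which reduce protein disulfides and peroxides, had a median log2 fold change of 0.25 with 10 above 0 and none with an unadjusted p under 0.05. Their mean level, as a deviation from the average of the 6 cultures on the log2 scale, was 0.41 in high [GSH] replicate 2, and -0.13 and -0.03 in the other high [GSH] cultures, against -0.18, 0.08 and -0.14 in low [GSH]. Without high [GSH] replicate 2 the median was -0.04. TRX2, a cytosolic thioredoxin gene, had 69.2, 94.9 and 84.0 CPM against 76.6, 150 and 83.0 CPM, and only replicate 2 stood out. TSA1, the major cytosolic peroxiredoxin gene, had 328, 402 and 378 CPM against 397, 559 and 412 CPM and a log2 fold change of 0.30 with an interval from -0.03 to 0.64.

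Catalases, dismutases and peroxidases had a median of 0.12, with 6 of 9 members above 0. SOD2, the mitochondrial manganese superoxide dismutase gene, was the only member with an unadjusted p under 0.05. It had 267, 304 and 324 CPM in low [GSH] and 359, 379 and 339 CPM in high [GSH], a log2 fold change of 0.27 with an interval from 0.05 to 0.49 and an adjusted p of 0.972. SOD1, the copper and zinc dismutase gene, had 510, 655 and 470 CPM against 438, 826 and 514 CPM, with overlapping groups and an estimate of 0.12. CTT1, the cytosolic catalase gene, had an estimate of 0.24 with an interval from -0.01 to 0.49. Glutaredoxins and glutathione transferases had a median of 0.04. GTT2, a glutathione transferase gene, was at -0.19 and GRX2, the main glutaredoxin gene, at 0.36 with an interval from -0.37 to 1.09.

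**Figure D3:**
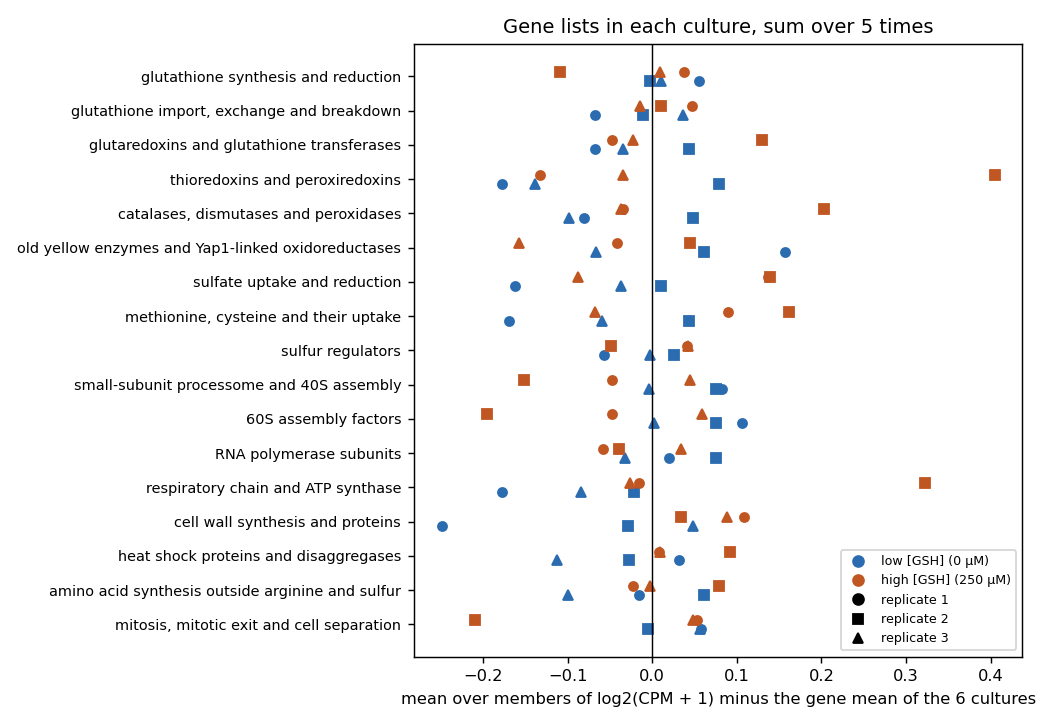
Mean level of the members of 17 gene lists in each culture, as the deviation of log2(CPM + 1) from the mean of the 6 cultures, counts summed over 5 times. Colour gives the group and marker shape the replicate. High [GSH] replicate 2 lies apart for thioredoxins and peroxiredoxins (0.41) and for the respiratory chain (0.32), and the groups overlap in most lists.

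Glutathione carries cysteine, so genes of sulfur supply were taken as a further group. Sulfate uptake and reduction had a median of 0.14 with 8 of 9 members above 0 and none with an unadjusted p under 0.05. The genes for methionine, cysteine and their uptake had a median of 0.13, with 19 of 24 above 0 and 1 with an unadjusted p under 0.05. That median was 0.06 without low [GSH] replicate 1, 0.07 without high [GSH] replicate 2 and 0.21 without low [GSH] replicate 2. MET17, which makes homocysteine from sulfide, had 255, 374 and 349 CPM in low [GSH] and 444, 469 and 339 CPM in high [GSH]. The groups overlapped through replicate 3 of high [GSH], and the estimate was 0.36 with an interval from -0.04 to 0.75. SUL2, a sulfate permease gene, had 67.2, 87.7 and 96.3 CPM against 128, 107 and 82.1 CPM, an estimate of 0.33 with an interval from -0.08 to 0.75. In 29 genes of the iron regulon, which responds to the glutathione-dependent iron-sulfur status of mitochondria, the median was 0.01, with 1 gene higher and 1 lower at an unadjusted p under 0.05.

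CUP1-2, the copper metallothionein gene, encodes a small cysteine-rich protein and lies in a tandem repeat, so reads from other repeat copies cannot be assigned with certainty. Its low [GSH] cultures had 486, 663 and 607 CPM and its high [GSH] cultures 753, 1222 and 895 CPM, without overlap. The log2 fold change was 0.71 with an interval from 0.28 to 1.14 and an edgeR adjusted p of 0.972. With the trend against coding length removed, which was tried after the data had been seen, the estimate was 0.49. At 48 h the libraries had 624, 707 and 894 CPM against 912, 1720 and 1382 CPM, a log2 fold change of 0.85, which DESeq2 called with an adjusted p of 0.0287 and edgeR did not, with 0.583. At 3 h the ranges overlapped, with 230, 224 and 339 CPM against 240 and 280 CPM, and at 12 h they did not, with 435, 465 and 446 CPM against 783 and 691 CPM. In the steady-state libraries they were 749, 1157 and 1188 CPM against 1136, 1479 and 1256 CPM. The list of 13 copper and zinc genes had a median of 0.06, with 1 gene at an unadjusted p under 0.05.

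Genes of respiration and of ribosome assembly leaned to opposite sides by small amounts. Of 44 genes for the respiratory chain or the ATP synthase, 42 were above 0, with a median log2 fold change of 0.19 and 8 at an unadjusted p under 0.05, beside the 2.54% of all genes that were higher at that level. ATP15, the gene of the smallest subunit of the ATP synthase catalytic part, had 23.1, 25.8 and 28.7 CPM against 36.3, 48.5 and 35.7 CPM, a log2 fold change of 0.63 with an interval from 0.31 to 0.96. NDI1, the internal NADH dehydrogenase gene, had 174, 185 and 219 CPM against 270, 231 and 231 CPM and an estimate of 0.34. STF1, which encodes a protein acting with the ATP synthase inhibitor, had 69.7, 67.8 and 100 CPM against 119, 105 and 105 CPM and an estimate of 0.47. The groups did not overlap for these 3 genes, and the edgeR adjusted p was 0.972 for each. DESeq2 called STF1 at 24 h, with a log2 fold change of 0.76 and an adjusted p of 0.00159, where edgeR gave an adjusted p of 0.997.

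High [GSH] replicate 2 carried much of this, with a list mean of 0.32, against -0.02 and -0.03 in the other high [GSH] cultures and -0.18, -0.02 and -0.08 in low [GSH]. Without that culture the median was 0.06, 28 of 44 members were above 0 and 4 had an unadjusted p under 0.05. Without low [GSH] replicate 1 that count was 1 and without low [GSH] replicate 2 it was 2. The genes of this list are short, with a median coding length of 451 bases against 1128 over all genes tested, and levels moved with coding length in single cultures. Across 5317 genes Spearman's ρ between coding length and the deviation of a culture was 0.40, -0.41 and 0.17 in high [GSH] replicates 1 to 3 and 0.11, -0.38 and 0.44 in low [GSH] replicates 1 to 3. With that trend removed the median of the respiratory list was 0.08 and that of the thioredoxin list 0.14. The estimate of ATP15 was then 0.42, against 0.63. What part the trend has in these list medians beyond that was not tested.

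Genes of ribosome assembly had estimates mostly below 0. Of 66 factors for the 60S subunit 3 were above 0, with a median of -0.11 and 0 at an unadjusted p under 0.05, and of 53 factors for the 40S subunit 2 were above 0, with a median of -0.10 and 1 at that level. Culture means of the 60S list were 0.11, 0.08 and 0.00 in low [GSH] and -0.05, -0.20 and 0.06 in high [GSH], and overlapped. Without high [GSH] replicate 2 the medians were -0.08 and -0.05, and without high [GSH] replicate 3 they were -0.18 and -0.15. Members of a list share regulation and are not independent, so the count of members on 1 side is a description of these 6 cultures. Cell wall genes had a median of 0.13, with low [GSH] replicate 1 at -0.25 and the other 5 cultures between -0.03 and 0.11. Without low [GSH] replicate 1 the median was 0.02. Lists for the G1 to S transition and DNA replication and for mitosis and cell separation had medians of -0.04 and -0.05.

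Taken time by time, edgeR called 0 genes at each of the 5 times at an adjusted p under 0.05. At 1.5 h 226 of 5787 genes (3.91%) had an unadjusted p under 0.05, at 6 h 102 of 5790 (1.76%), at 24 h 97 of 5814 (1.67%), at 48 h 492 of 5851 (8.41%) and at 96 h 254 of 5869 (4.33%). DESeq2 called 0 genes at 1.5 and 6 h, with 215 (3.37%) and 111 (1.74%) at an unadjusted p under 0.05. It called 3 genes at 24 h (0.0469%), 9 at 48 h (0.141%) and 2 at 96 h (0.0312%), with 131 (2.05%), 500 (7.81%) and 254 (3.97%) at an unadjusted p under 0.05. The 95% interval lay within 2-fold for 90.9% to 94.8% of genes at single times, and within 1.5-fold for 56.7% at 24 h and 78.1% at 48 h.

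At 48 h more genes stood on the higher side, with 352 (6.02%) higher and 140 (2.39%) lower in high [GSH]. Without low [GSH] replicate 1 these were 127 and 51, without low [GSH] replicate 2 154 and 36, and without high [GSH] replicate 2 277 and 53. Without high [GSH] replicate 1 they were 457 and 316, without high [GSH] replicate 3 393 and 236, and without low [GSH] replicate 3 424 and 225. The respiratory list had 16 of 44 members higher, with a median of 0.22, and the cell wall list 8 of 39, with a median of 0.18. The respiratory list had 7 of 44 without low [GSH] replicate 1, 5 without low [GSH] replicate 2, 9 without high [GSH] replicate 2, and 6 and a median of 0.12 with the length trend removed. The cell wall median was 0.07 without low [GSH] replicate 1 and 0.06 without high [GSH] replicate 2. The 60S assembly list had 13 of 66 lower, with a median of -0.20, which became 1 of 66 and -0.13 without high [GSH] replicate 2, 2 of 66 without low [GSH] replicate 2, 4 without low [GSH] replicate 1, and 25 and 24 without high [GSH] replicates 1 and 3. The glucose transporter and sensing list had 4 of 22 higher and a median of 0.20. None of these members passed after adjustment, where the smallest adjusted p over all genes was 0.583.

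The 9 genes that DESeq2 called at 48 h were CUP1-2, MFA2, LEE1, MTL1, PMP3, XBP1 and DDR2, which were higher, and YLR198C and YIL177C, which were lower. MFA2 had an estimate of 0.88 with a DESeq2 adjusted p of 0.00668 and YIL177C, at 4.64 to 9.79 CPM in the sum, of -2.04 with 0.0133. DDR2, a stress-response gene, had an estimate of 0.70 with a DESeq2 adjusted p of 0.0193, XBP1, a stress-induced repressor of cyclin genes, of 0.73 with 0.0375, and MTL1, a cell wall sensor gene, of 1.18 with 0.0133. In the sum, removing the trend against coding length took the short genes MFA2, PMP3 and DDR2 from 0.38, 0.39 and 0.61 to 0.13, 0.14 and 0.40. The longer LEE1, XBP1 and MTL1 went from 0.58, 0.60 and 0.90 to 0.58, 0.59 and 0.89. MTL1 varied widely between libraries of a group, with 17.4, 23.7 and 32.8 CPM against 79.7, 51.0 and 36.6 CPM at 48 h and 1 high [GSH] library at 179 CPM at 6 h. FLO11, the flocculin gene for surface adhesion, was not called at 48 h and was also variable, with summed levels of 4.23, 11.26 and 21.02 CPM in low [GSH] and 24.95, 24.85 and 24.49 CPM in high [GSH], and an edgeR estimate of 1.02 with an interval from -0.02 to 2.07.

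The genes that DESeq2 called in the sum were YLR198C and YGR160W, open reading frames not listed as protein-coding in the annotation. YLR198C had 19.2, 18.6 and 16.0 CPM in low [GSH] and 12.8, 9.64 and 9.63 CPM in high [GSH], and an edgeR log2 fold change of -0.75 with an interval from -1.08 to -0.42. YGR160W had 6.06, 6.35 and 5.24 CPM against 3.29, 3.57 and 3.11 CPM, an estimate of -0.82 with an interval from -1.14 to -0.51. They belong to 447 such frames tested, of which 12 were higher and 34 lower at an unadjusted p under 0.05, with a median of -0.07, while the 5728 annotated genes had 145 higher and 30 lower and a median of 0.01. Frames of this kind often overlap other genes. Their median level was 0.69 CPM, and together they took 0.142% to 0.166% of mRNA reads in high [GSH] cultures and 0.145% to 0.160% in low [GSH] cultures.

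A further comparison asked whether the difference between high and low [GSH] itself shifted from the early times, 1.5 and 6 h, to the late times of 24, 48 and 96 h. edgeR's quasi-likelihood test of that contrast on the 30 libraries, with the culture as a block, called 0 of 5977 genes (0.0%), with 470 at an unadjusted p under 0.05 (7.86%) and a smallest adjusted p of 0.496. Of the 470, 312 (5.22%) shifted towards lower and 158 (2.64%) towards higher levels in high [GSH]. A test over any pattern in time called 0 genes, with 107 at an unadjusted p under 0.05 (1.79%).

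Amino acid synthesis was the list with the most members at an unadjusted p under 0.05 in the late minus early contrast, 23 of 57. For each of these the difference between high and low [GSH] shifted downwards from the early to the late times. Of the 57 genes outside the arginine and sulfur branches, 51 were below 0, and the median was -0.18 beside -0.01 over all genes. LYS9, a lysine synthesis gene, had a late minus early difference of -0.52 with an interval from -0.85 to -0.20, ARO2, the chorismate synthase gene, of -0.35, and PRO3, the last enzyme of proline synthesis, of -0.38. In list means the late minus early change was -0.09, -0.08 and -0.26 in the low [GSH] cultures and -0.44, -0.29 and -0.23 in the high [GSH] cultures, which overlapped. The early means were 0.03, 0.11 and 0.07 in low [GSH] and 0.24, 0.26 and 0.13 in high [GSH], without overlap. This was not particular to the list. Early means were also higher in high [GSH] without overlap in the lists of the TCA and glyoxylate cycle, heat shock proteins and histone genes. The same held for glycerol metabolism and for copper and zinc genes. Late means overlapped, at -0.06, 0.03 and -0.20 in low [GSH] and -0.20, -0.04 and -0.10 in high [GSH]. Without high [GSH] replicate 1, 5 of the 57 had an unadjusted p under 0.05, with a median of -0.12. In that fit 151 of all 6004 genes shifted downwards at that level. Without low [GSH] replicate 1 or 2 the list had 10 of 57, beside 154 of 5999 and 162 of 5997 over all genes. Without high [GSH] replicate 2, high [GSH] replicate 3 and low [GSH] replicate 3 it had 23, 28 and 29. Over all genes 296 of 5993, 561 of 5996 and 516 of 5997 shifted downwards at that level in those fits, against 312 with all cultures. In the sum over times the same list had a median of 0.05.

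**Figure D4:**
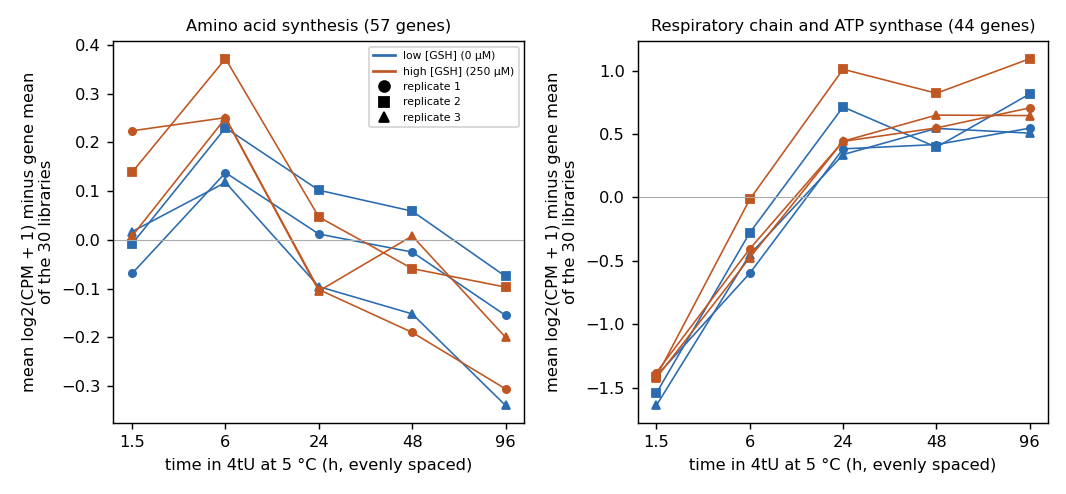
Mean level of the 57 amino acid synthesis genes and of the 44 genes for respiration and ATP synthase in each library, as the deviation of log2(CPM + 1) from the mean of the 30 libraries, by time in 4tU. Colour gives the group and marker shape the replicate. The late minus early change of the first list spans -0.26 to -0.08 in low [GSH] and -0.44 to -0.23 in high [GSH], and that of the second list spans 1.45 to 1.69 over the 6 cultures.

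The total of labelled mRNA was read from the ratio of S. cerevisiae mRNA reads to S. pombe reads. Before labelling, at time 0, this ratio was 0.02 to 0.15 in low [GSH] and 0.04 to 0.05 in high [GSH]. At 1.5 h it was 1.34, 1.92 and 1.42 in low [GSH] and 1.696, 1.705 and 1.997 in high [GSH]. At 6 h the 6 cultures lay close together, at 3.687, 3.628 and 3.799 against 4.11, 3.71 and 3.54, a ratio of the groups of 1.02 (this and the ratios below are of geometric means). At 24 h the low [GSH] cultures spread to 5.08, 4.18 and 9.31, around the high [GSH] values of 7.05, 5.86 and 6.45.

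At 48 h the ratio was 5.51, 6.44 and 8.82 in low [GSH] and 13.2, 11.5 and 7.21 in high [GSH], and the group ratio was 1.52. At 96 h it was 6.93, 7.72 and 16.7 against 19.3, 15.1 and 11.3, with a group ratio of 1.54. The groups overlapped at every time. From 24 h on low [GSH] replicate 3 was above the other low [GSH] cultures, and at 48 and 96 h high [GSH] replicate 3 was lowest of its group. Exact two-sided permutation tests over the cultures gave p of 0.2 at 48 h and 0.3 at 96 h, where 0.1 is the smallest p that 3 against 3 allows. The mean over the 5 times was 4.73 ± 1.07 (SD, n = 3) in low [GSH] and 5.85 ± 0.71 (SD, n = 3) in high [GSH], each culture being the geometric mean of its times, with a ratio of 1.25 of the groups' geometric means, an exact permutation p of 0.3 and 0.45 after adjustment over the 6 comparisons. A total per spike-in read cannot tell more RNA per cell from more cells.

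**Figure D5:**
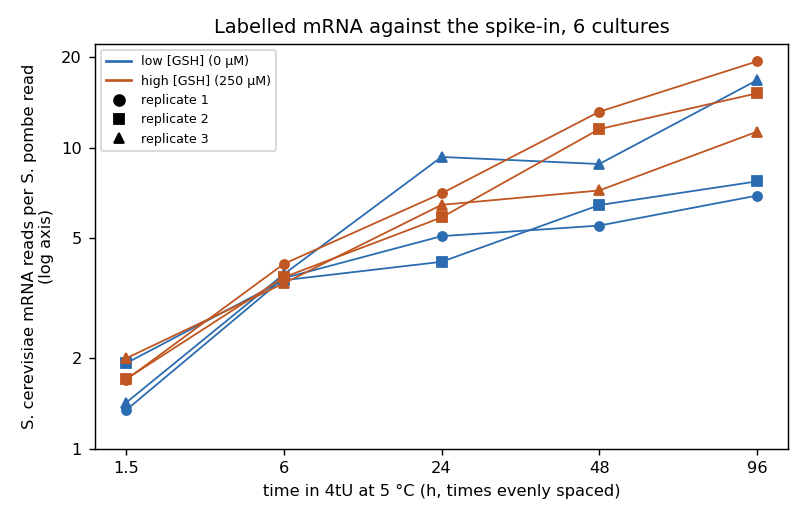
S. cerevisiae mRNA reads per S. pombe read (log axis) in the 6 cultures by time in 4tU at 5 °C. Colour gives the group and marker shape the replicate. All 6 cultures lie between 3.54 and 4.11 at 6 h, and at 96 h they spread from 6.93 to 19.3 with the groups overlapping.

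Fold changes of single genes are relative to the total of mRNA reads, so a shift of all mRNA does not appear in them. When library sizes were taken from the S. pombe reads the median of all genes in the sum moved to 0.17, and to 0.61 at 48 h and 0.48 at 96 h. In the sum 4 genes were then called, all higher: CUP1-2 at 0.85, FLO11 at 1.09, MTL1 at 1.02 and TAR1 at 1.41. TAR1, an open reading frame antisense to the ribosomal RNA, had 0.32 to 4.30 CPM.

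The effect of glutathione at 5 °C was also set against that in the 30 libraries at 1 °C, which were taken at 6, 12, 24, 48 and 96 h, so that the times summed differ. The test of the difference between the temperatures called 0 of 6374 genes (0.0%), with 151 at an unadjusted p under 0.05 (2.37%) in edgeR. OYE3 had a log2 fold change of -0.96 at 1 °C, with an adjusted p of 0.442, and CUP1-2 of 0.39, with 1.00. OYE2, at -0.36, and GTT2, at -0.425, were also larger in size at 1 °C than at 5 °C. Smaller in size at 1 °C than at 5 °C were ADH6 and OPT1, at -0.06 each, MTL1 at -0.08, FLO11 at 0.05, DDR2 at -0.01 and MET17 at -0.13. Of these, OPT1, MTL1, DDR2 and MET17 had the opposite sign at 5 °C. GSH1 was at -0.14 and GLR1 at -0.07 at 1 °C, and neither passed at either temperature.

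The cultures of a group differed from each other about as much as from those of the other group. In the sum the median difference over 5317 genes between cultures of different groups was 0.06 to 0.19 on the log2 scale over 9 pairs, within high [GSH] 0.08 to 0.19 over 3 pairs and within low [GSH] 0.11 to 0.12 over 3 pairs. The first principal component took 55.0% of the variance and set high [GSH] replicate 2 apart, with a loading of 0.79, with the groups interleaved. The second took 28.9%, with low [GSH] replicate 1 farthest out at 0.81. On it the high [GSH] cultures, at -0.37, -0.32 and -0.20, lay below the low [GSH] cultures, at 0.81, 0.23 and -0.14.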

How the data were processed

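RNA of the 30 labelled libraries was prepared with a stranded total RNA kit. The authors quantified reads with Salmon against a combined S. cerevisiae (R64 per the labels) and S. pombe transcript set and deposited, per library, estimated counts of reads and TPM for each transcript. The S. cerevisiae rows named by a Y locus tag plus _mRNA, which hold coding sequences without UTRs, were used. The deposited TPM entered only an alternative for the spike-in ratio.

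Estimated counts were rounded to whole numbers. The 5 times of each culture were summed, and sums, single times and the early and late contrast were fitted with edgeR 4.0.16 (TMM, filterByExpr, quasi-likelihood F-test) in R 4.3.3, with Benjamini-Hochberg adjustment over all genes tested and a threshold of 0.05 on the adjusted p. Changes between 1.5 and 96 h within a group are contrasts in the fit of the 30 libraries with the culture as a block. Other log2 fold changes are high [GSH] minus low [GSH], and 95% intervals use the quasi-likelihood degrees of freedom. CPM is per 1000000 mRNA reads after TMM. The spike-in ratio divides S. cerevisiae mRNA reads by the reads of all S. pombe rows, rRNA included, and was compared with exact permutation tests. DESeq2 1.42.0, limma 3.58.1, no filter, S. pombe library sizes, single cultures left out, a replicate block and a coding-length trend removed (loess span 0.5, chosen after seeing the data) were alternatives. The scripts were tested on simulated data.

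The members and the 43 gene lists were chosen with earlier results of these data known. By the rule for named genes, genes past the threshold in each comparison would be named, and no gene passed, so that only the 2 glutathione lists come by rule. Of the list symbols 4 matched no row. Gene names and sequences are from RefSeq for S288C R64. The p-values measure the spread between these replicates, which may in part be technical, and 3 cultures a group limit the precision.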

Additional observations from a re-analysis of the deposited data

How the results depend on the processing

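Of 95 alternative counts of called genes, 88 were 0 like the reported count. The 7 above 0 were 2 genes with DESeq2 and 4 with S. pombe library sizes in the sum over times, 3, 9 and 2 genes with DESeq2 at 24, 48 and 96 h, and 1 gene each at 48 h without high [GSH] replicate 1 (YIL177C) and in the late minus early contrast without high [GSH] replicate 3 (PRM7). Counts without single replicates thus ranged from 0 to 1 in both. The genes with an unadjusted p under 0.05 in the sum ranged from 71 to 392 over its alternatives. Of 377 alternative values for the glutathione genes 354 moved by less than the spread between replicates, and 5 had an unadjusted p under 0.05. The spike-in difference at 6 h (log2 0.03) was -0.02 with summed TPM and -0.034 to 0.10 without single replicates, and at 24 h (0.14) it was -0.028 to 0.48. Its other alternatives kept direction. The cause of these shifts was not tested.

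Same-numbered cultures correlated in their deviations at 0.01, 0.59 and 0.24, and not every culture correlated best with its own number. The labels do not say whether a number marks a shared day, so the number was not taken as a pairing. With the replicate block the count of calls was 0 in the sum, at each time and in the contrast, with 357 genes at an unadjusted p under 0.05 in the sum, and 157, 192, 281, 406 and 393 at the 5 times.

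GEX1, at 0.17 to 0.51 CPM, had an interval beyond 2-fold, and the unannotated frames had a median level of 0.69 CPM. The permutation test of the spike-in ratio cannot go below a p of 0.1.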
